A study of Homo sapiens with 4 samples.

Results

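The 29 genes described here encode proteins that make mitochondrial messages into protein: 16 mitochondrial aminoacyl-tRNA synthetases, 9 translation factors and 4 enzymes that modify mitochondrial tRNAs. They were chosen by name from a list, and all 29 were found among the 20033 protein-coding genes of the RefSeq gene table. ChIP-seq, in which chromatin is precipitated with an antibody and its DNA sequenced, was used to map the oestrogen-related receptor ERRα in the established breast cancer line MDA-MB-231, a triple-negative and invasive human line. The series holds 2 ERRα ChIP replicates, precipitated with 5 µg of 1 antibody, and 2 input libraries of the same line, all from cells fixed with 1% formaldehyde. Per the design text, these libraries came from 2 cultures of the line. The study set out to find ERRα target genes. Cells lacking ERRα were not among these samples, and a peak is a place where the precipitated DNA exceeded input, not a measure of expression.

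Mitochondria translate a small set of respiratory chain subunits with a machinery of their own, whose proteins are nearly all encoded in the nucleus. Synthetases attach each amino acid to its mitochondrial tRNA, modifying enzymes finish the wobble base of some tRNAs or formylate the initiator, and initiation, elongation, release and recycling factors run the ribosome. ERRα belongs to the nuclear receptors without a known natural hormone, and many genes of mitochondrial energy metabolism are known targets of it. It binds a short response element, written here as TNAAGGTCA, that contains the core AGGTCA of many nuclear receptors.

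A gene was assigned each summit, the highest point of a peak, that lay inside it or within 10 kb of it. Peaks were called separately in each replicate and then matched, and a matched peak with an irreproducible discovery rate (IDR) of at most 0.05 is called reproducible. Replicate 1 had 14072 peaks, replicate 2 had 12659, and of 10059 matched peaks 5070 were reproducible. All heights are the authors' fold enrichment of ChIP over input at the summit. The filter favours peaks of like height in both replicates, so their likeness is not separate evidence. With 2 ChIP libraries, peak lists only and both lists called against the same inputs, no test over samples was possible and none is given.

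The sequences before the gene starts are shown for the reproducible summits that fell within them. Each line gives the 250 bases before the RefSeq start (GRCh38.p14), on the strand of the gene. TUFM and MTIF2 are members of the group, on chr16:28846349-28846598 and chr2:55269180-55269429, both on the minus strand. ECM1, on chr1:150507859-150508108 on the plus strand, is no member, but its promoter holds the summit assigned to its neighbour TARS2. Capitals mark the response element TNAAGGTCA in ECM1, the core AGGTCA in MTIF2, where it reads TGACCT on the printed strand, and the 11 bases around the summit in TUFM, which had neither.
TUFM: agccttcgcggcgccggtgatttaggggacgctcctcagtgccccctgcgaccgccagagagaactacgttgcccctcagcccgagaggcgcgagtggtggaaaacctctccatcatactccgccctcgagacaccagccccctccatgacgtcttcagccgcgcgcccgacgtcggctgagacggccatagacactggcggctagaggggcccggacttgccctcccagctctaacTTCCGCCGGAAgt
MTIF2: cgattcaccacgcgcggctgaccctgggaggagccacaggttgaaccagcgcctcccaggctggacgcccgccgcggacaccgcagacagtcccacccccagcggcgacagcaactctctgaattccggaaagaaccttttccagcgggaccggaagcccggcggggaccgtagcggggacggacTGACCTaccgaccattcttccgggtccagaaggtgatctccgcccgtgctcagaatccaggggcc
ECM1: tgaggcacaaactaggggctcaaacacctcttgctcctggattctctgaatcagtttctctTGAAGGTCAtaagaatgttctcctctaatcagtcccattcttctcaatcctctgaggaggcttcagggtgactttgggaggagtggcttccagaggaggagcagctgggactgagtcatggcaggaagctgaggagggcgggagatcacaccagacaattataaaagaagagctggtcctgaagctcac

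Reproducible ERRα summits were found at 11 of the 29 genes (37.9%, exact Clopper-Pearson 95% interval 20.7 to 57.7), against 18.3% of all protein-coding genes under the same rule. The 11 were the synthetase genes TARS2, WARS2, EARS2, FARS2 and MARS2, the translation factor genes TUFM, MTIF2 and MTRF1L, and the modification genes GTPBP3, MTFMT and TRMU. Each had 1 reproducible summit. A further 10 members had matched summits above an IDR of 0.05, 1 had a summit in a single replicate, and 7 had none in any list. The median gene length, which sets how many summits a gene can catch, was 28.1 kb in the group and 24.1 kb over all protein-coding genes.

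Within 1 kb of a gene start, the summits of 7 members were reproducible (24.1%, exact interval 10.3 to 43.5), against 4.31% of all protein-coding genes. These were MARS2 among the synthetases, TUFM, MTIF2 and MTRF1L among the translation factors, and GTPBP3, TRMU and MTFMT among the modification genes. Start positions came from a RefSeq promoter table that has 25 of the 29 members. For AARS2, VARS2, MTO1 and MTFMT, and for 4191 protein-coding genes in all, either end of the gene was used in place of the start. By this rule all 3 translation factor genes and all 3 modification genes among the 11 were counted, and 1 of the 5 synthetase genes. No test was made between the roles.

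**Figure D1:**
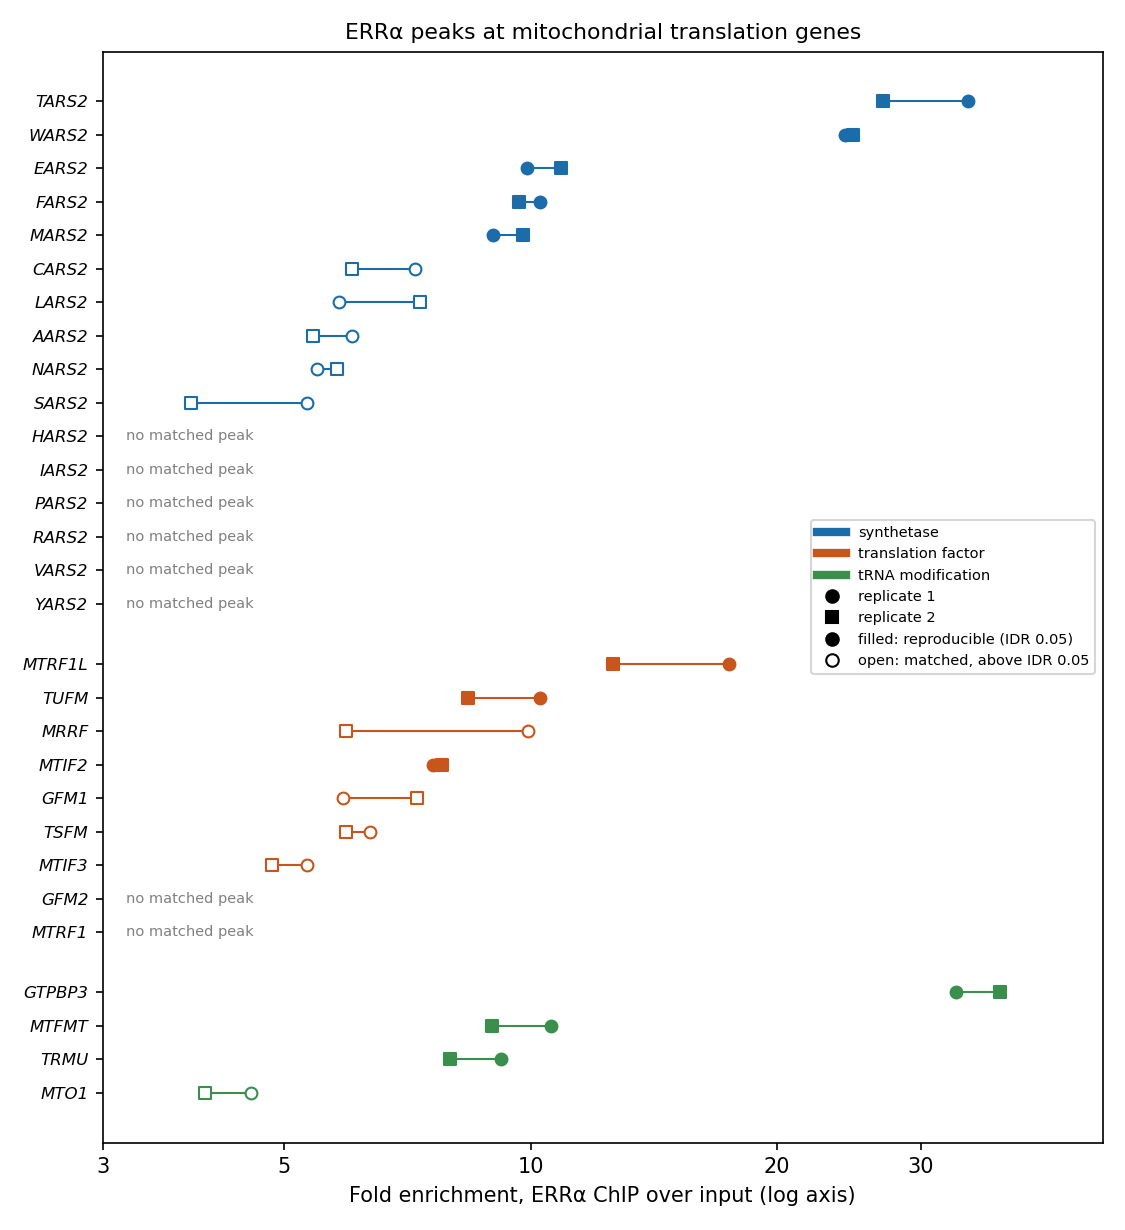
Fold enrichment of ERRα ChIP over input (log axis) at the strongest reproducible summit, or the strongest matched summit where none was reproducible, for the 21 of 29 genes that had one; the others are marked as having no matched peak. Circles are replicate 1 and squares replicate 2, filled where the peak was reproducible, and the colours show the role: GTPBP3, TARS2 and WARS2 stood above 20-fold in both replicates, and most other members lay near or under 10-fold.

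Among the tRNA modification genes, GTPBP3 had the highest peak of the group. GTPBP3 and MTO1 together make the taurine modification of the wobble uridine, and TRMU adds sulphur to the same base in some of these tRNAs. The GTPBP3 peak (chromosome 19, 17333814 to 17334977) had folds of 33.1 in replicate 1 and 37.5 in replicate 2, a mean of 35.3 ± 3.08 (SD, n = 2), and 91.4% of reproducible peaks were lower. Its summit lay 790 bp before the start of GTPBP3 but inside the neighbouring gene ANO8, 663 bp from an end of that gene. The peak can therefore be assigned to either gene.

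At TRMU the peak was the widest of the 11, at 1459 bp (chromosome 22, 46335350 to 46336808). It spanned the start, with the summit 831 bp into the gene, and its folds were 9.20 and 7.96 in replicates 1 and 2 (mean 8.58 ± 0.876, SD, n = 2). MTFMT formylates the methionine on the initiator tRNA, and its peak (chromosome 15, 65028764 to 65029587) had folds of 10.6 and 8.97 (mean 9.79 ± 1.15, SD, n = 2), with the summit 515 bp inside the upper-coordinate end of the gene. MTO1, the partner of GTPBP3, had a matched summit 10 bp from its lower-coordinate end, but with folds of 4.55 and 3.99 it was the lowest of the strongest matched peaks and was not reproducible. The class thus had a reproducible summit at 3 of its 4 genes, against 18.3% of all genes, and a matched summit at all 4, against 30.8%. At an IDR of 0.01 it was 2 of 4, against 14.9%. When a summit counted only for the nearest protein-coding gene it was also 2 of 4, against 14.6%.

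The translation factor genes with a reproducible summit all had it within 150 bp of the start. MTRF1L, a release factor that frees the finished chain at stop codons, had the highest peak (chromosome 6, 153002285 to 153003179). Its folds were 17.5 in replicate 1 and 12.6 in replicate 2, a mean of 15.1 ± 3.44 (SD, n = 2), with the summit 150 bp into the gene. This was also the bound factor gene whose replicates differed most.

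TUFM encodes the mitochondrial elongation factor Tu, which carries charged tRNAs to the ribosome. The TUFM peak (chromosome 16, 28846088 to 28847091) had folds of 10.3 and 8.39 in replicates 1 and 2 (mean 9.33 ± 1.33, SD, n = 2). Its summit was 8 bp before the start, and also 250 bp from the start of SH2B1, an adaptor gene on the other strand. MTIF2 encodes the initiation factor that brings the formylated initiator tRNA to the ribosome. Its peak was narrow, at 351 bp (chromosome 2, 55269137 to 55269487), with folds of 7.60 and 7.78 (mean 7.69 ± 0.127, SD, n = 2) and the summit 82 bp before the start. Among the 3 factor genes the folds of MTIF2 were the most alike. Only 0.947% of reproducible peaks were lower, so it stood near the bottom of the list.

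The 3 genes were 33.3% of the 9 factor genes, against 18.3% of all genes by the wider rule. At an IDR of 0.01 it was 1 of 9 (11.1%), against 14.9%. Of the other 6 factor genes, none had a reproducible peak. MRRF, the recycling factor that splits the ribosome after release, had matched summits 3033 and 111 bp into the gene. The second was also 153 bp from the start of RBM18, on the other strand. The first had folds of 9.94 in replicate 1 and 5.94 in replicate 2, a mean of 7.94 ± 2.83 (SD, n = 2), which was above that of MTIF2. Its replicates lay further apart, and its IDR score was 288 against 556 for MTIF2, where 540 corresponds to an IDR of 0.05. TSFM, which recharges elongation factor Tu with GTP, had a matched summit 303 bp before its start (folds 6.36 and 5.94) that lay inside the gene EEF1AKMT3. MTIF3, the other initiation factor, had one 1115 bp before its start (5.33 and 4.83).

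The elongation factor G genes differed between the replicates near their starts. GFM1, which encodes the factor that moves the ribosome along the message, had a summit 59 bp into the gene in replicate 2 (fold 5.64) with no peak there in replicate 1. Its matched summit was 27883 bp into the gene, 238 bp from the start of LXN, with folds of 5.89 and 7.26 in replicates 1 and 2. GFM2, whose product works with MRRF in recycling, had a summit 190 bp into the gene in replicate 1 (fold 5.33) and none in replicate 2. That summit was also 322 bp from the start of NSA2, on the other strand. MTRF1, the paralogue of MTRF1L, had no summit in any list, and the nearest reproducible one was 241 kb away.

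Among the synthetase genes the strong peaks were not at the starts. TARS2, for threonine, had folds of 34.3 in replicate 1 and 27.0 in replicate 2, a mean of 30.6 ± 5.13 (SD, n = 2; chromosome 1, 150507533 to 150508327). The summit lay 20550 bp after the start of TARS2 and 367 bp beyond its far end, and 140 bp before the start of ECM1, which encodes an extracellular matrix protein. WARS2, for tryptophan, had folds of 24.2 and 24.8 (mean 24.5 ± 0.379, SD, n = 2; chromosome 1, 119133670 to 119134675), with the summit 6536 bp into the gene. This summit lay inside no other protein-coding gene.

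EARS2 charges the mitochondrial glutamate tRNA and, before amidation, the glutamine tRNA. Its peak lay 16961 bp into the gene (chromosome 16, 23540139 to 23540753) and had folds of 9.89 and 10.9 in replicates 1 and 2 (mean 10.4 ± 0.695, SD, n = 2). FARS2, for phenylalanine, is the longest of the 29 at 522 kb, and its summit was 357 kb into the gene (chromosome 6, 5618099 to 5618541), with folds of 10.3 and 9.67 (mean 9.97 ± 0.429, SD, n = 2). MARS2, for methionine, is the shortest at 3.03 kb. It was the synthetase gene with a reproducible summit at the start, 565 bp into the gene (chromosome 2, 197705470 to 197706230), with folds of 8.99 and 9.79 (mean 9.39 ± 0.563, SD, n = 2).

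LARS2 and SARS2 had matched summits at their starts that were not reproducible. At LARS2, for leucine, the summit was 50 bp into the gene, with folds of 5.84 in replicate 1 and 7.32 in replicate 2 and an IDR score of 339. At SARS2, for serine, it was 137 bp before the start with folds of 5.33 and 3.85, and 44 bp from the start of MRPS12, a protein gene of the mitochondrial ribosome that is read the other way. CARS2 (cysteine), AARS2 (alanine) and NARS2 (asparagine) had matched summits that were not reproducible and lay away from both ends of the gene. The stronger of CARS2 (folds 7.23 and 6.04) lay 57688 bp into the gene, and the other 6593 bp outside it. Those of AARS2 (6.04 and 5.41) and NARS2 (5.48 and 5.81) lay 5485 and 4666 bp outside their genes. CARS2, with an IDR score of 379, came closest to the limit from below, and MTIF2, with 556, was the lowest above it.

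HARS2, IARS2, PARS2, RARS2, VARS2 and YARS2, for histidine, isoleucine, proline, arginine, valine and tyrosine, had no summit inside the gene or within 10 kb in either replicate's list. The distance to the nearest reproducible summit was 40.0 kb for PARS2 and 81.7 kb for RARS2. It was 167 kb for VARS2, 222 kb for IARS2, 534 kb for HARS2 and 994 kb for YARS2. AARS2, with a weak matched peak, was 25.4 kb from a reproducible peak of mean fold 59.8. Together with PARS2 and MTO1, at 49.9 kb, it was added when the window was widened to 50 kb.

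**Figure D2:**
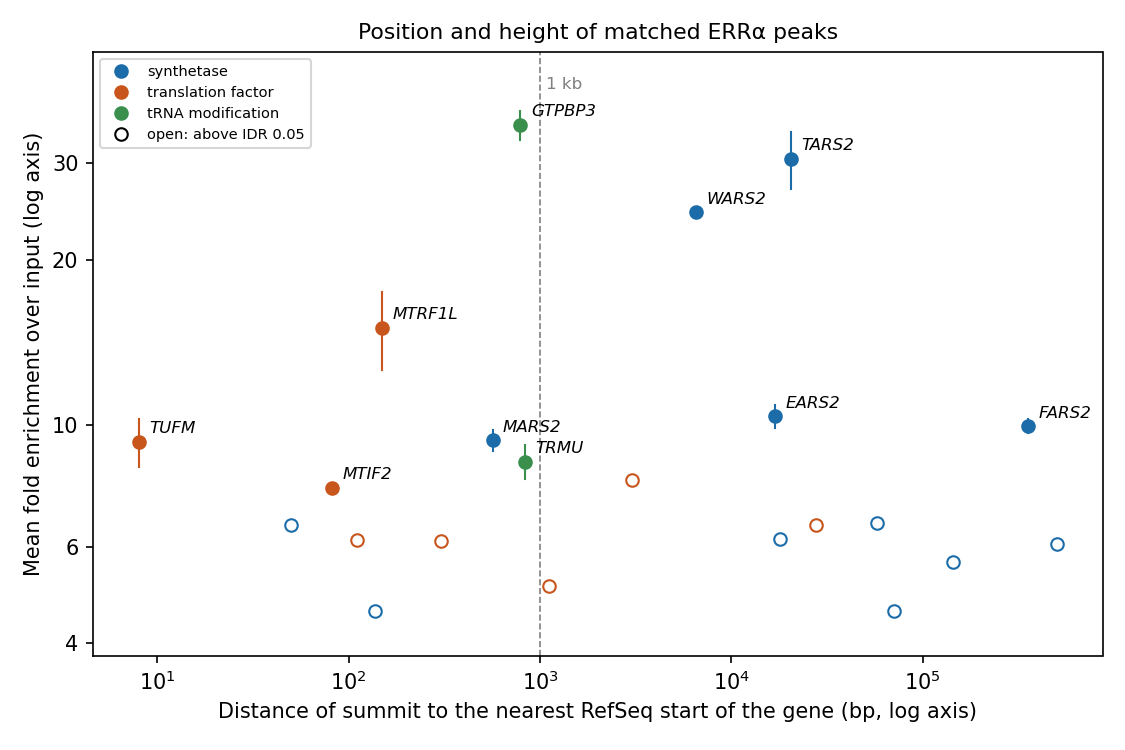
Mean fold enrichment (log axis) against the distance from summit to the nearest RefSeq start of the gene (bp, log axis), for the matched peaks of members with an entry in the promoter table. Filled points are reproducible peaks with lines joining the replicates: TUFM, MTIF2 and MTRF1L lie within 150 bp and the synthetase genes TARS2, WARS2, EARS2 and FARS2 beyond 1 kb.

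Among the reproducible peaks, heights varied more between genes than between replicates of a gene. The filter had favoured peaks of like height in both replicates, so this was partly set in advance. Over the 11 members the mean folds ran from 7.69 at MTIF2 to 35.3 at GTPBP3, with a median of 9.97, against a median of 12.9 over all 5070 reproducible peaks. The SD was below 10% of the mean in 6 of the 11, against 55.8% of all reproducible peaks. Replicate 1 was higher in 6 and replicate 2 in 5. The summits of the replicates lay 3 to 121 bp apart. Peak width had a median of 824 bp in the group and 774 bp over all reproducible peaks.

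The 300 bases around each RefSeq start, 250 before and 50 after it, were searched on both strands for the response element. None of the 25 members with an entry had TNAAGGTCA there, against 0.896% of 15842 protein-coding genes with an entry, and 3.78% of the 715 of these with a reproducible summit within 1 kb of the start. The core AGGTCA, which every TNAAGGTCA contains, was present in MTIF2 alone of the 25. It was present in 15.3% of all genes with an entry, and in 26.4% of the 715 with a reproducible summit within 1 kb of the start. In MTIF2 the core lay 17 bases from the matched summit. Among the members' reproducible summits, only those of TUFM and MTIF2 lay inside the member's own window. The reproducible peaks of MARS2, EARS2, FARS2, WARS2 and TARS2 lay wholly outside theirs, and MTFMT had no window. No sequence outside these windows was used here, so the absence of the letters says nothing of the sequence under most of the peaks.

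The ECM1 promoter, which holds the TARS2 summit, had TGAAGGTCA at bases 62 to 70 of the sequence printed above, 41 bases from the summit. The printed sequences also differed in base composition: the 250 bases held 25 CpG in TUFM, 24 in MTIF2 and 1 in ECM1. Over the 25 members with an entry, the 300-base windows had a median of 62.3% G and C and 24 CpG, against 62.7% and 22 over all genes with an entry. By this measure, the starts of the group were close to those of all genes. The 715 genes with an entry and a reproducible summit within 1 kb of the start had higher medians, 65.7% and 27.

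**Figure D3:**
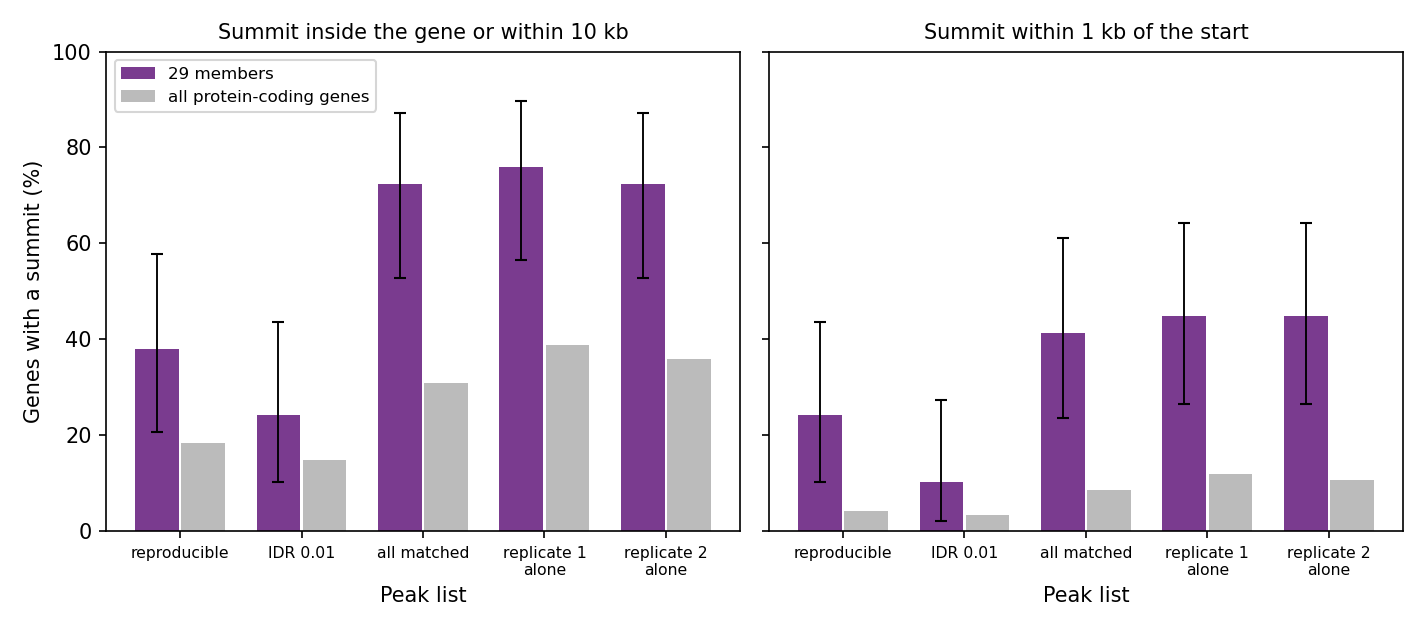
Share of genes (%) with an ERRα summit inside the gene or within 10 kb (left) and within 1 kb of the start (right), for the 29 members beside all protein-coding genes, under 5 peak lists; error bars are exact 95% intervals of the members' shares. The members' share was above that of all genes under each list, and both grew when weaker peaks were counted. At an IDR of 0.01 the intervals in both panels included the share of all genes.

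With all matched peaks, 21 of the 29 genes had a summit inside or within 10 kb (72.4%), against 30.8% of all genes, and 12 had one within 1 kb of the start (41.4%), against 8.62%. Replicate 1 alone gave 22 (75.9%), against 38.9% of all genes, and replicate 2 alone 21, against 35.9%. At the start each replicate alone gave 13 members, against 12% of all genes in replicate 1 and 10.7% in replicate 2. At an IDR of 0.01 there were 7 members (24.1%, exact interval 10.3 to 43.5), against 14.9% of all genes. At the start there were 3 (10.3%, exact interval 2.19 to 27.4), against 3.43%, namely MTRF1L, MTFMT and GTPBP3. Both of these intervals included the share of all genes.

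Other windows were counted as well. Reproducible summits inside the gene or within 1 kb, and within 5 kb, were found at the same number of members, 11, against 13.4% and 15.8% of all genes. The window of 50 kb gave 14 (48.3%, exact interval 29.4 to 67.5), against 33.7%. With any base of the peak in place of the summit there were 11, against 18.6%. When a summit counted only for the nearest protein-coding gene, 9 members were counted, against 14.6%, because ECM1 and ANO8 were nearer to the summits of TARS2 and GTPBP3. At the start, 3 members had a summit within 500 bp (10.3%, exact interval 2.19 to 27.4), against 2.84% of all genes. Within 5 kb of the start there were 7, against 8.05%. Either end of the gene gave 8, against 4.49%, with TARS2 added, and any base of the peak gave 7, against 5.11%.

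Related gene lists, chosen with earlier results of these data known, were counted in the same way, with no test between them. Of 77 genes for mitochondrial ribosomal proteins, 28 (36.4%) had a reproducible summit inside or within 10 kb, against 18.3% of all genes. Within 1 kb of the start 17 (22.1%) had one, against 4.31%. At the start the mean folds of these genes ran from 7.88 at MRPS22 to 41.9 at MRPS25. MRPL48 (34.0), MRPL12 (29.96) and MRPL47 (26.7) were the next highest. By the same rule the MRPL47 summit also lay at the start of NDUFB5. Of 46 other genes of mitochondrial tRNA maturation and translation, 11 (23.9%, exact interval 12.6 to 38.8) had a summit by the wider rule. That interval included the 18.3% of all genes. At the start 7 (15.2%) had one, against 4.31%. The strongest was at MTRES1, a mitochondrial transcription rescue factor, with folds of 41.6 and 56.3 in replicates 1 and 2 (mean 49.0 ± 10.4, SD, n = 2). MTRES1 has no entry in the promoter table, and its summit was 342 bp from an end of the gene. MTRES1 was followed by GATB (24.4 ± 0.954), a subunit of the enzyme that amidates the glutamine tRNA charged by EARS2. TACO1, an activator of cytochrome oxidase subunit translation (12.8 ± 0.230), and OXA1L, which inserts new proteins into the inner membrane (11.8 ± 1.33), came next.

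Of 18 genes for cytosolic synthetases, 2 had a reproducible summit by either rule (11.1%, exact interval 1.38 to 34.7), namely TARS1 (9.75 ± 1.25, SD, n = 2) and FARSA (9.55 ± 2.11). The mitochondrial synthetases stood at 5 of 16 (31.3%) by the wider rule, against 18.3% of all genes, and at 1 of 16 (6.25%) at the start, close to the 4.31% of all genes. The exact 95% intervals of the cytosolic and mitochondrial lists, drawn in the plot of shares by role, overlapped, which is no test between them. MRPL58 is counted in both the ribosomal and the tRNA maturation list.

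**Figure D4:**
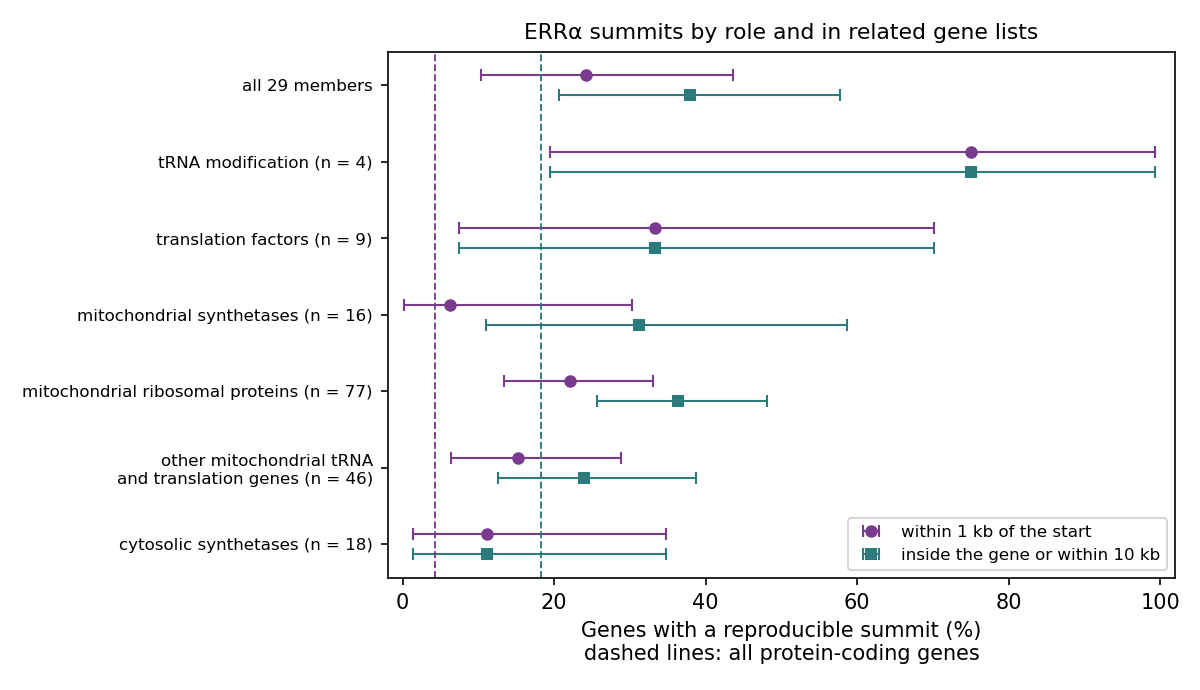
Share of genes (%) with a reproducible ERRα summit within 1 kb of the start (circles) or inside the gene or within 10 kb (squares), for the 29 members, their roles and related lists, with exact 95% intervals. Dashed lines give all protein-coding genes, 4.31% and 18.3%. At the start the intervals of the mitochondrial and the cytosolic synthetases include the dashed line. By the wider rule those of the mitochondrial synthetases, translation factors, other tRNA and translation genes and cytosolic synthetases include theirs.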

How the data were processed

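The submitters' processing notes name hg38 as the build, MACS2 2.2.6 for peaks, Bowtie2 2.3.5 and Trim Galore 0.6.5, as well as deepTools, SAMtools and Picard. Their settings were not used here. The authors deposited a narrowPeak list for each ERRα ChIP replicate, called against both inputs, and a list of matched peaks in the layout of IDR output. The deposited fold enrichment is a ratio of ChIP to local input, the deposited −log10 p and −log10 q come from the peak caller, and the deposited scores are the whole-number peak score and the scaled IDR score. A score of at least 540 is an IDR of at most 0.05. Depth per library was not used, so intervals cover the number of genes only.

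Summits on chromosomes 1 to 22, X and Y were assigned to RefSeq GRCh38.p14 genes with Python 3.11.15 and pandas 2.3.3; patch and alternate contigs were left out. Calls were checked on planted summits. The members, lists and rules were chosen with earlier results of these data known. Named are all 29 members and, of each related list, up to 4 genes with the highest mean fold at a start. MRPS22, neighbouring genes, cytosolic counterparts and MRPL58 were named after their values were seen. Alternatives were stricter and looser peak sets, single replicates, other windows, nearest-gene assignment and other motifs. Sequences came from RefSeq promoter windows; no genome was used here.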

Additional observations from a re-analysis of the deposited data

How the results depend on the processing

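The count of 11 genes with a reproducible summit inside or within 10 kb, against 18.3% of all genes, was 7 at an IDR of 0.01, against 14.9%. It was 21 with all matched peaks, against 30.8%. Without replicate 1 it was 21, against 35.9%, and without replicate 2 it was 22, against 38.9%. These are the lists of the other replicate alone. Windows of 1 and 5 kb gave 11, against 13.4% and 15.8% of all genes, as did any base of the peak, against 18.6%. The window of 50 kb gave 14, against 33.7%. A −log10 q of at least 5 in both replicates also gave 11. It left the count over all genes at 3668 of 20033 too, so it was no check of the result. With the nearest protein-coding gene only, the count was 9, against 14.6%, since ECM1 and ANO8 were nearer to the TARS2 and GTPBP3 summits. The 7 genes with a summit within 1 kb of the start, against 4.31% of all genes, became 3 at an IDR of 0.01, against 3.43%. There were 12 with all matched peaks, against 8.62%. Without replicate 1 or replicate 2 there were 13, against 10.7% and 12%. A 500 bp window gave 3, against 2.84%, namely TUFM, MTIF2 and MTRF1L. Either end of the gene gave 8, against 4.49%. Fewer or more peaks, or a narrower window, make these counts differ by construction. For promoter windows, 0 members held TNAAGGTCA or TCAAGGTCA and 1 held AGGTCA. With TCAAGGTCA allowing 1 mismatch, chosen after seeing the data, 2 did (SARS2 and GFM1), against 6.03% of all genes with an entry. No paired analysis was possible because the peak lists give no separate value for each input and no test was made. Class counts of 1 to 5 genes cannot show small differences between roles.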

Other observations

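The synthetase genes can also be set beside their cytosolic counterparts. Of 13 amino acids with a gene in both lists under the same letter, threonine had a reproducible summit inside or within 10 kb for both TARS2 and TARS1. Methionine and tryptophan had one for the mitochondrial gene, MARS2 and WARS2, and not for MARS1 and WARS1. The other 10 had none for either gene. Outside this pairing by letter, phenylalanine also had a summit for both FARS2 and FARSA, which encodes a subunit of the cytosolic enzyme, and none for FARSB. EARS2 and PARS2 were not paired by letter either. EARS2 had a summit and PARS2 had none, and EPRS1 of the cytosolic list had none. The TARS1 summit was 55 bp from its start, with folds of 8.86 and 10.6 in replicates 1 and 2, whereas that of TARS2 was at the far end of the gene.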
